A study of Mus musculus with 6 samples.

Results

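The transforming growth factor beta (TGF-beta) pathway was followed through 10 genes, taken by symbol from the deposited expression table: the ligand Tgfb1, the receptors Tgfbr1 and Tgfbr2, the signal carriers Smad2, Smad3 and Smad4, the inhibitor Smad7, and the transcriptional repressors Ski, Skil and Tgif1. All 10 were among the 11162 genes listed, and all 10 passed the filter for testing, a mean of at least 1 RPKM over the 6 libraries. RPKM scales reads to the length of the gene and the depth of the library, so levels of different genes can be set side by side per length. Poly(A) RNA, amplified with the SMART-seq v4 kit, had been sequenced from CD8 T cells of mouse spleen, 3 libraries from cells with high (GFP-hi) and 3 from cells with low (GFP-lo) fluorescence of the Nur77-GFP reporter. All mice carried the transgene Tg(Nr4a1-EGFP)GY139Gsat, in which the regulatory DNA of Nr4a1 drives green fluorescent protein, and no treatment is named. Both populations had been gated as CD8+, CD44lo, CD62Lhi, Qa2hi and OT-I cells, OT-I being a transgenic T-cell receptor. The labels name no difference between the groups other than the reporter gate. The labels give neither the age of the mice nor how many animals stand behind a library, so the p-values measure the spread between these libraries, which may be partly technical. Replicate numbers were given in the order of the records and only name libraries; the labels do not say whether a GFP-hi and a GFP-lo library share a mouse or a day.

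TGF-beta is a secreted dimer held in a latent complex until it is released. The active ligand binds the type II receptor Tgfbr2, which phosphorylates the type I receptor Tgfbr1, and this kinase phosphorylates Smad2 and Smad3. They join Smad4 and regulate genes in the nucleus, where Ski, SnoN (encoded by Skil) and Tgif1 recruit corepressors against them, while Smad7 blocks the receptor. In T cells the pathway restrains activation and effector functions, helps to maintain naive cells, and induces the integrin CD103 in CD8 T cells.

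The recovered sequencing depth ran from 26170000 to 35940000 reads per library, so a transcript of 1 kilobase at 1 RPKM rested on 26.2 to 35.9 reads. The label of naive CD8 T cells was borne by marker genes: Cd8b1 was at 785 to 839 RPKM and Cd8a at 90.9 to 107 RPKM, and the naive-cell gene Tcf7 lay above 412 RPKM in each library. Of the B cell markers only Cd79b passed 1 RPKM, with 12.02, 14.08 and 13.34 RPKM in GFP-hi against 11.1, 10.6 and 10.6 RPKM in GFP-lo. The 3 listed B cell markers summed to 12.6 to 14.2 RPKM in GFP-hi and 11.0 to 11.4 RPKM in GFP-lo. The 3 listed myeloid markers, led by Cst3, summed to 20.5 to 25.8 RPKM in GFP-hi and 20.6 to 22.5 RPKM in GFP-lo and the 1 listed platelet and erythroid marker was at most 1.94 RPKM. The 2 listed NK cell markers went opposite ways: Nkg7 was at 298 to 316 RPKM in GFP-hi and 276 to 284 RPKM in GFP-lo, and Klrk1 at 0.216 to 0.469 and 0.479 to 0.726 RPKM. The 2 listed markers of CD4 and regulatory T cells, Ctla4 and Cd40lg, summed to 15.8 to 25.6 RPKM in GFP-hi and 36.5 to 48.2 RPKM in GFP-lo, which was mostly Cd40lg. Cd40lg fell (log2 fold change -1.13, limma adjusted p = 0.011), whereas Ctla4 was at 2.54 ± 0.790 against 1.42 ± 0.393 RPKM (SD, n = 3 each; log2 fold change 0.53, limma adjusted p = 0.16). Of the 6 listed CD8 markers none passed the test (background 3.95% in either direction). Of the 8 naive-cell genes 1 passed, Il7r, which fell (log2 fold change -0.80, limma adjusted p = 0.0022; background 1.49% lower). Of these 8 genes, 6 had a log2 fold change below 0, with a median of -0.09. The defining markers Lyz2, Pf4 and Foxp3 were not analysed here. In bulk RNA a change in the share of expressing cells and a change in RNA per cell cannot be told apart.

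The receptor Tgfbr2 was the most abundant of the 10 genes, with a mean of 48.0 ± 4.41 RPKM (SD over 6 libraries). Smad4, the shared partner of the receptor-regulated Smads, followed at 39.9 ± 2.44 RPKM, and Tgfb1 at 22.6 ± 1.21 RPKM. Smad7 stood at 15.9 ± 1.74, Smad3 at 12.2 ± 2.71 and Smad2 at 9.37 ± 0.640 RPKM. The lowest levels were those of Tgif1 (5.56 ± 0.874), Tgfbr1 (5.32 ± 0.526), Skil (3.13 ± 0.440) and Ski (2.80 ± 0.655 RPKM). Tgfbr2 lay above Smad4, and Smad7 above Smad3, in 6 of 6 libraries, although their ranges over libraries overlapped. Neighbours that changed places in at least 1 library were Smad3 and Smad2 (Smad3 higher in 5 of 6), Tgif1 and Tgfbr1 (Tgif1 higher in 4 of 6), and Skil and Ski (Skil higher in 5 of 6). The rarest, Ski, still rested on 62 to 134 reads per kilobase of transcript.

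**Figure D1:**
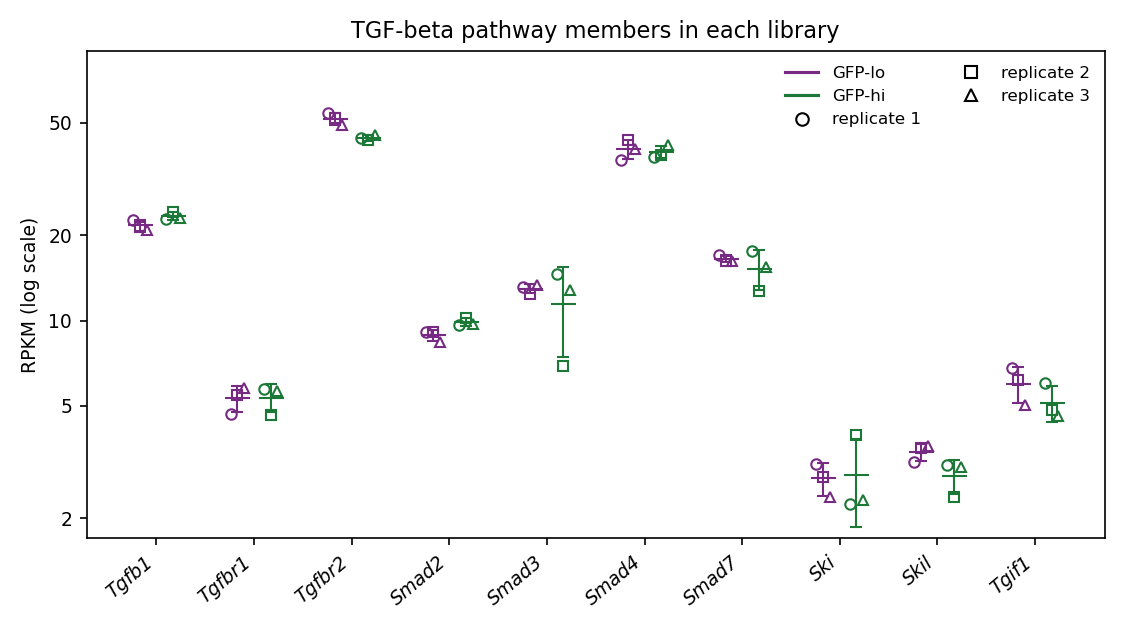
RPKM (log axis) of the 10 members in each of the 6 libraries, GFP-lo in purple and GFP-hi in green, with a symbol for each replicate number; bars give the mean and SD of 3 libraries. Tgfbr2 and Smad4 stand highest, and Smad3 and Ski are the genes that 1 GFP-hi library spreads widely.

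The question of the comparison was whether cells with a bright reporter express this pathway at another level than cells with a dim one. None of the 10 genes passed the test in either direction (limma on log2(RPKM + 1), adjusted p from 0.075 to 1.00), against 3.95% of the 9351 genes tested. At an unadjusted p under 0.05 there were 3 of 10 genes, Tgfbr2, Smad2 and Skil, against 20.2% of all genes. Higher in all GFP-hi than in all GFP-lo libraries were 2 of the 10 (background 17.1%), and lower in all were 2 (background 9.84%, and 26.9% of genes for either direction). The fold changes had a median of -0.07 over the members and 0.02 over all genes tested on the log2(RPKM + 1) scale, with 4 of 10 above 0. For 9 of the 10 genes the 95% interval of the log2 fold change stayed within 0.5 of 0, its extremes being -0.46 and 0.38. The interval of Smad3 was wider, from -0.73 to 0.28. The bound of 0.5 applies to the log2(RPKM + 1) scale, which narrows the differences and intervals of low genes. With a pseudocount of 0.1, Skil moved from -0.21 (standard error 0.091) to -0.28 (0.119). Tgif1 moved from -0.19 (standard error 0.117) to -0.22 (0.135).

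**Figure D2:**
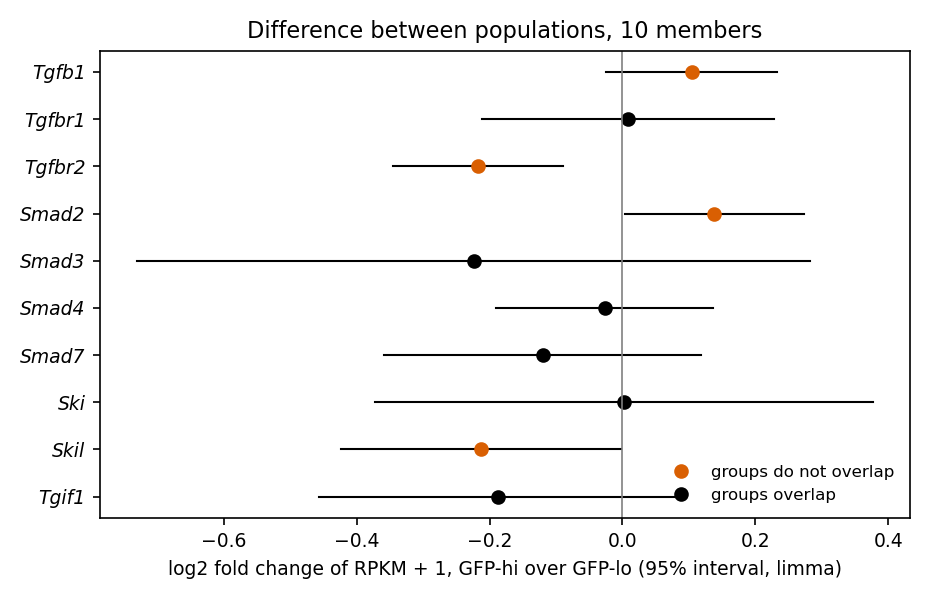
Log2 fold change of RPKM + 1 (horizontal axis, GFP-hi over GFP-lo) for each member, with its 95% interval from limma; orange points are genes whose 3 GFP-hi and 3 GFP-lo libraries do not overlap. Tgfbr2 lies farthest from 0 relative to its interval, from -0.35 to -0.09, and Smad3 has the widest interval.

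Among ligand genes, Tgfb1 (Entrez 21803) encodes the main TGF-beta isoform of lymphocytes. It had 22.9, 24.3 and 23.0 RPKM in the GFP-hi libraries and 22.8, 21.4 and 21.0 RPKM in the GFP-lo libraries. The groups did not overlap, but the highest GFP-lo library lay within 0.2 RPKM of the lowest GFP-hi library. Tgfb1 differed by 0.10 on the log2 scale (95% interval -0.02 to 0.23, limma adjusted p = 0.35), that is 23.4 ± 0.775 against 21.7 ± 0.942 RPKM (SD, n = 3 each). Tgfb3, another isoform, was at 0.576 to 1.02 RPKM and was not tested.

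The type II receptor gene Tgfbr2 (Entrez 21813) came closest to the threshold. Its RPKM was 44.2, 43.4 and 45.4 in GFP-hi and 54.0, 52.2 and 49.0 in GFP-lo. Each GFP-hi library was thus below each GFP-lo library, and the GFP-hi values were the more tightly grouped. GFP-hi cells averaged 44.3 ± 1.009 RPKM and GFP-lo cells 51.7 ± 2.55 RPKM (SD, n = 3 each), a ratio of 0.857. On the log2 scale the difference was -0.22 (standard error 0.056, 95% interval -0.35 to -0.09, limma adjusted p = 0.075). It passed the threshold under 2 of 19 alternatives, quantile normalization (-0.25, adjusted p = 0.049) and array quality weights (-0.18, adjusted p = 0.028), and adjusted p reached 0.25 over the others.

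The 250 bases before the annotated starts of Tgfbr2 and Tgfb1 are shown because these receptor and ligand genes had separate groups in opposite directions. Both come from RefSeq's GRCm38.p6, the build called mm10 in the submitters' processing notes, and run 5′ to 3′ in the direction of the gene. Capitals mark CAGAC or its reverse complement GTCTG, letters that Smad3 and Smad4 can bind. The Tgfbr2 stretch lies at chr9:116175364-116175613 on the minus strand and the Tgfb1 stretch at chr7:25686752-25687001 on the plus strand, each just upstream of its gene's first exon.
Tgfbr2: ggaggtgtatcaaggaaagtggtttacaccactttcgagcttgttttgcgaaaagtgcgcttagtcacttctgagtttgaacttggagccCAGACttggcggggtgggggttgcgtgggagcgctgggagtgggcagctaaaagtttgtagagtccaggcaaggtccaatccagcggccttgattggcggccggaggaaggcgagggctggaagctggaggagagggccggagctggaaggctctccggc
Tgfb1: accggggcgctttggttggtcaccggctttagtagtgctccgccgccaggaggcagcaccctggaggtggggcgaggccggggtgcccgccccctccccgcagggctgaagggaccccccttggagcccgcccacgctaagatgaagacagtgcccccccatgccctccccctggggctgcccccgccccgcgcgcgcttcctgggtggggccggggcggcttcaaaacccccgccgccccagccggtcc
The letters occurred 1 time in the Tgfbr2 stretch, starting 160 bases before the start site (-160), and 0 times in the Tgfb1 stretch, which was the richer in G and C (75.2% against 58.4%). They occur in 42.2% of 32851 promoter windows of this length, both strands read, so a match by itself describes the sequence only.

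The type I receptor gene Tgfbr1 (Entrez 21812) was expressed far below its partner. It had 5.72, 4.65 and 5.66 RPKM in GFP-hi and 4.68, 5.45 and 5.79 RPKM in GFP-lo, so the groups overlapped fully. The log2 fold change was 0.01 (95% interval -0.21 to 0.23, limma adjusted p = 0.98), and its sign turned when the first or the third GFP-hi library or the first GFP-lo library was left out (-0.04, -0.03 and -0.07). Tgfbr2 stood above Tgfbr1 by 7.72, 9.34 and 8.02 times in the GFP-hi libraries and by 11.6, 9.57 and 8.46 times in the GFP-lo libraries. This ratio overlapped between the populations (two-sided exact permutation test, p = 0.2, adjusted p = 0.40 over the 6 quantities compared in this way). The ratio of Tgfb1 to Tgfbr2 did not overlap, with 0.519, 0.560 and 0.506 in GFP-hi against 0.421, 0.409 and 0.428 in GFP-lo. Tgfb1 and Tgfbr2 already had separate groups in opposite directions, so their ratio had to separate. Its exact permutation p was 0.1, the smallest that 3 against 3 libraries allow (adjusted p = 0.30). That p was fixed by the values of the genes themselves, so it adds no evidence to them.

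Of the Smads that carry the signal, Smad2 (Entrez 17126) had slightly more RNA in each GFP-hi library. Its RPKM was 9.65, 10.2 and 9.71 in GFP-hi and 9.09, 9.15 and 8.39 in GFP-lo. The groups were separate and the distance small: the log2 fold change was 0.14 (95% interval 0.0033 to 0.27, limma adjusted p = 0.24). Smad4 (Entrez 17128) had 38.0, 38.6 and 41.9 RPKM in GFP-hi and 37.1, 43.5 and 40.4 RPKM in GFP-lo, with overlapping groups. Smad4 differed by -0.03 on the log2 scale (95% interval -0.19 to 0.14, limma adjusted p = 0.88) and 0.03 without GFP-lo replicate 2.

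Smad3 (Entrez 17127) was the most variable of the carriers. It had 14.6, 6.91 and 12.9 RPKM in GFP-hi and 13.2, 12.4 and 13.4 RPKM in GFP-lo. GFP-hi replicate 2 alone was low, below Smad2 in the same library, and the other 5 libraries had from 12.4 to 14.6 RPKM. In that library Smad3 was 0.90 below the mean of the other 2 GFP-hi libraries on the log2(RPKM + 1) scale (-0.90), and 99.3% of tested genes deviated less there. Over all libraries its log2 fold change was -0.22 (95% interval -0.73 to 0.28, limma adjusted p = 0.63), and leaving out GFP-hi replicate 2 turned it to 0.07 (adjusted p = 0.62). The ratio of Smad2 to Smad3 was 1.48 in GFP-hi replicate 2 and 0.628 to 0.755 in the others (exact permutation p = 0.4 between populations).

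The inhibitory Smad7 (Entrez 17131), itself a target of the pathway, had 17.7, 12.7 and 15.4 RPKM in GFP-hi and 17.1, 16.3 and 16.3 RPKM in GFP-lo. GFP-hi replicate 2 was again the lowest, and the GFP-hi libraries lay on both sides of the GFP-lo ones. The log2 fold change was -0.12 (95% interval -0.36 to 0.12, limma adjusted p = 0.58) and -0.0033 without GFP-hi replicate 2. Set against the receptor's substrates, Smad7 RNA was 0.728, 0.742 and 0.683 of the summed Smad2 and Smad3 levels in GFP-hi and 0.769, 0.755 and 0.748 in GFP-lo. These ratios did not overlap (exact permutation p = 0.1, adjusted p = 0.30), and GFP-hi replicate 2, low in both Smad3 and Smad7, had an ordinary ratio.

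The repressors differed from each other. Skil (Entrez 20482), which encodes SnoN, had 3.08, 2.38 and 3.04 RPKM in GFP-hi and 3.15, 3.55 and 3.60 RPKM in GFP-lo. All GFP-hi values were below all GFP-lo values, though GFP-hi replicate 1 and GFP-lo replicate 1 nearly met. The log2 fold change was -0.21 (95% interval -0.42 to -0.0029, limma adjusted p = 0.24), and it came to -0.12 when GFP-hi replicate 2 was left out. Its relative Ski (Entrez 20481) had 2.24, 3.96 and 2.32 RPKM in GFP-hi and 3.11, 2.81 and 2.39 RPKM in GFP-lo. GFP-hi replicate 2 was the highest library for Ski, the only one of the 6 in which Ski exceeded Skil. Ski differed by 0.0023 on the log2 scale (95% interval -0.37 to 0.38, limma adjusted p = 1.00), and leaving out GFP-hi replicate 2 moved it to -0.20, leaving out GFP-lo replicate 3 to -0.07. Tgif1 (Entrez 21815), a homeodomain repressor, had 6.001, 4.82 and 4.58 RPKM in GFP-hi and 6.79, 6.15 and 5.04 RPKM in GFP-lo. These ranges overlapped, with a log2 fold change of -0.19 (95% interval -0.46 to 0.08, limma adjusted p = 0.42). The 3 repressors summed to 11.3, 11.2 and 9.94 RPKM in GFP-hi and 13.1, 12.5 and 11.0 RPKM in GFP-lo (exact permutation p = 0.3), with overlapping groups.

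GFP-hi replicate 2 therefore set the spread of several members. Relative to the other 2 GFP-hi libraries, Ski was higher by 0.60 and Smad7 (-0.35), Skil (-0.27) and Tgfbr1 (-0.24) were lower on the log2(RPKM + 1) scale. By contrast Tgfb1, Tgfbr2, Smad2 and Smad4 deviated there by 0.08 or less in either direction, less than the median absolute deviation of 0.11 over all tested genes in that library. The heat-shock genes Hspa1a and Hspa1b were at 1100 and 1904 RPKM in GFP-hi replicate 2 and at 1234 and 2133 RPKM in GFP-lo replicate 2, and at most 235 and 503 RPKM elsewhere. The 22 listed handling and heat-shock genes summed to 3737, 8078 and 3888 RPKM in GFP-hi and to 4801, 9024 and 4822 RPKM in GFP-lo. Between the populations 17 of the 22 had a fold change below 0, with a median of -0.27, and 1 passed the test, the cytokine signalling inhibitor gene Socs3, which fell (log2 fold change -0.93, limma adjusted p = 0.021; background 1.49% lower). In GFP-lo replicate 2, which had the same high heat-shock level, Smad3 (-0.09), Smad7 (-0.03), Ski (0.03) and Skil (0.06) stayed close to the other GFP-lo libraries. The part of handling in the members' values was not tested.

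**Figure D3:**
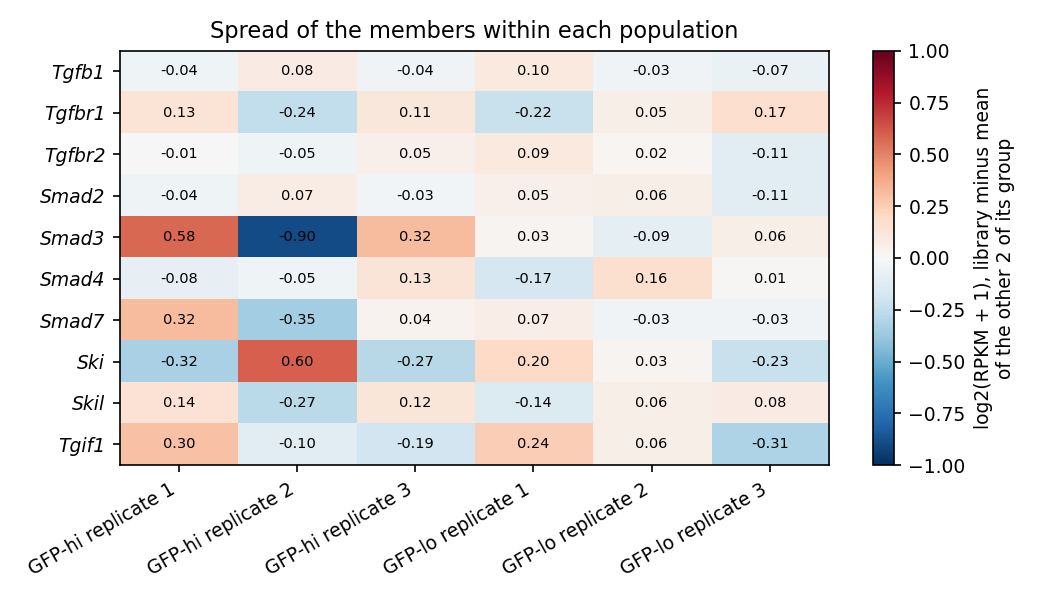
Difference on the log2(RPKM + 1) scale between each library and the mean of the other 2 libraries of its population, for each member (rows) and library (columns); red is above and blue below. The strongest cells are Smad3 (-0.90) and Ski (0.60) in GFP-hi replicate 2, whereas Tgfb1, Tgfbr2 and Smad2 are pale throughout.

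The members' spread within the populations differed accordingly. On the log2 scale the SD within groups was 0.053 for Tgfb1, 0.054 for Smad2 and 0.055 for Tgfbr2, below the median of 0.090 over all tested genes. It was 0.37 for Smad3 and 0.26 for Ski, larger than in 98.6% and 96.8% of tested genes. The remaining 5, Smad4 (0.094), Skil (0.12), Tgfbr1 (0.14), Smad7 (0.16) and Tgif1 (0.18), also lay above that median.

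Other genes of the pathway were read from 6 lists with 89 genes outside the members, of which 74 were listed and 64 tested. Of these 64, 1 rose and 0 fell in GFP-hi cells (limma, adjusted over all genes tested; background 2.46% higher and 1.49% lower), and 11 had an unadjusted p under 0.05 (background 20.2%). Their median log2 fold change was -0.02, beside 0.02 for all genes tested.

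The gene that rose was Acvrl1 (Entrez 11482), which encodes ALK1, a type I receptor of the same superfamily best known from endothelial cells, where it binds bone morphogenetic proteins. It had 5.88, 5.40 and 5.42 RPKM in GFP-hi and 3.52, 2.87 and 2.89 RPKM in GFP-lo. Every GFP-hi library was well above every GFP-lo library. GFP-hi cells averaged 5.57 ± 0.274 RPKM and GFP-lo cells 3.09 ± 0.369 RPKM (SD, n = 3 each), a ratio of 1.80. On the log2(RPKM + 1) scale they differed by 0.69 (95% interval 0.50 to 0.87, standard error 0.079, adjusted p = 0.0043 by limma). The call held in each of the 6 fits without 1 library (adjusted p up to 0.025) and was missed without GFP-hi replicate 2 and GFP-lo replicate 2 together (0.66, adjusted p = 0.051). Per length, GFP-hi cells thus held 5.57 RPKM of Acvrl1 beside 5.34 RPKM of Tgfbr1, and GFP-lo cells 3.09 beside 5.31 RPKM.

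Of the 6 further receptors tested, Acvrl1 was the only one called. Its coreceptor endoglin, encoded by Eng, had 9.23, 7.16 and 7.43 RPKM in GFP-hi and 8.11, 6.04 and 6.10 RPKM in GFP-lo, with overlapping groups (log2 fold change 0.21, limma adjusted p = 0.40). Betaglycan, a coreceptor encoded by Tgfbr3, was at 6.09 ± 0.833 against 6.67 ± 0.385 RPKM (SD, n = 3 each; log2 fold change -0.12, limma adjusted p = 0.53). The activin receptor gene Acvr1b was lower in all GFP-hi libraries, at 1.53, 2.22 and 1.74 RPKM against 2.51, 2.37 and 2.22 RPKM, with GFP-hi replicate 2 and GFP-lo replicate 3 almost equal. It did not pass (log2 fold change -0.26, limma adjusted p = 0.20).

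Of 16 genes that hold, form or release the ligand, 3 were tested and none passed. Nrros, which anchors latent TGF-beta on immune cells, had 21.5 ± 1.25 against 21.7 ± 2.27 RPKM (SD, n = 3 each; log2 fold change -0.01). Furin, the protease that cleaves the precursor, had a log2 fold change of -0.05 and the integrin subunit gene Itgav one of -0.04.

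Among 13 other Smads and Smad partners none passed, with 5 lower in all GFP-hi than in all GFP-lo libraries (background 9.84%) and 1 higher (background 17.1%). Lower were Smad1, Hgs, Crebbp, Runx1 and Tfe3, by log2 fold changes from -0.23 for Runx1 to -0.12 for Smad1, and the largest after Runx1 was that of the endosomal adaptor Hgs (-0.18, limma adjusted p = 0.23). Foxo1, a forkhead factor of naive T cells and the most abundant of the list, was the higher one, with 54.9 ± 1.71 against 49.7 ± 1.15 RPKM (SD, n = 3 each; log2 fold change 0.14, limma adjusted p = 0.18). The acetyltransferase gene Kat2a followed by level, at 36.4 ± 1.10 against 35.7 ± 1.40 RPKM (log2 fold change 0.03).

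Among the corepressors that Ski, SnoN and Tgif1 recruit, 0 of 11 passed, 4 were higher in all GFP-hi libraries (background 17.1%) and 1 was lower (background 9.84%), with a median log2 fold change of 0.06. The deacetylase genes Hdac2 (26.8 ± 1.53 against 23.0 ± 1.10 RPKM, log2 fold change 0.21, limma adjusted p = 0.11) and Hdac1 (38.1 ± 1.96 against 33.7 ± 0.306 RPKM, log2 fold change 0.17, limma adjusted p = 0.13) showed the largest differences (SD, n = 3 each). Ctbp1 had a log2 fold change of 0.02.

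Of 19 genes for the turnover of receptors and Smads, 0 passed, with a median of 0.03. Pmepa1, a TGF-beta target that sequesters Smads, had 1.37, 1.16 and 1.74 RPKM in GFP-hi and 0.839, 1.11 and 1.19 RPKM in GFP-lo, overlapping in 1 library each (log2 fold change 0.24, limma adjusted p = 0.28). Strap, which binds the receptors and Smad7, was more abundant and higher in all GFP-hi libraries, with 43.3 ± 1.09 against 38.6 ± 0.622 RPKM (SD, n = 3 each; log2 fold change 0.16, limma adjusted p = 0.12). Uchl5, a deubiquitinase of the type I receptor, had a log2 fold change of 0.20 (adjusted p = 0.23), and Usp4 one of -0.05. The non-Smad relays (12 tested, 0 passed) had a median of -0.03. Their extremes were the ubiquitin ligase gene Traf6 (-0.13) and the small GTPase gene Rhoa (0.09), the latter the most abundant, at 131 ± 9.83 against 122 ± 2.94 RPKM (SD, n = 3 each). Rock1 differed by 0.0038.

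**Figure D4:**
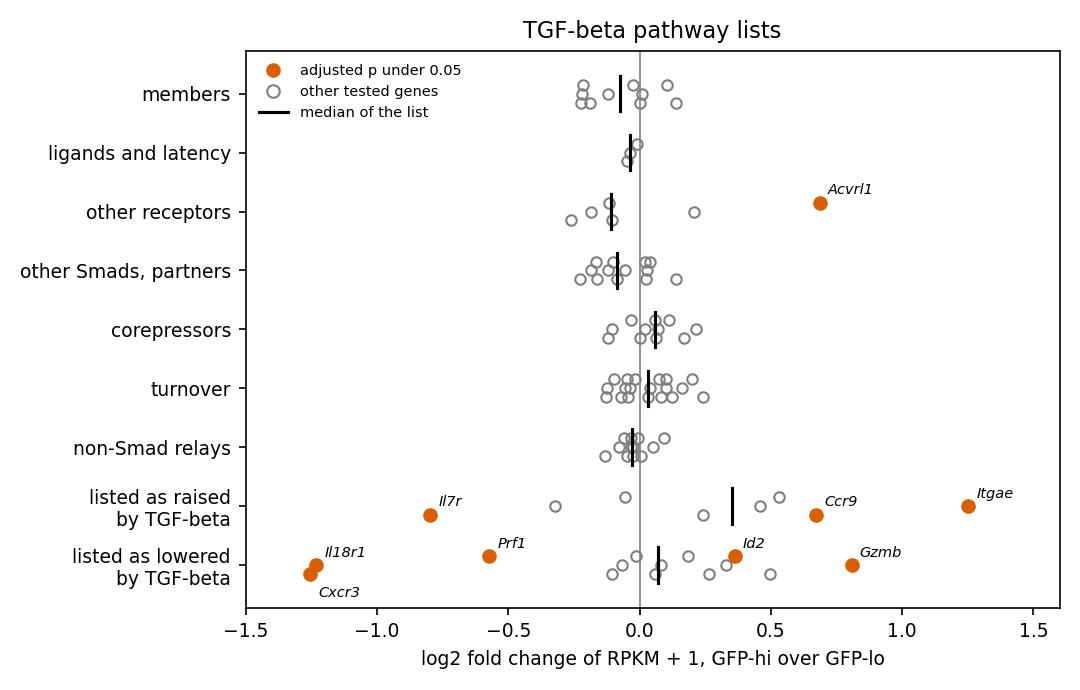
Log2 fold change of RPKM + 1 (horizontal axis, GFP-hi over GFP-lo) of each tested gene in the members and in 8 lists, members left out of the lists; filled points passed an adjusted p under 0.05 and black bars are medians. Acvrl1 is the single filled point among the pathway lists, while the lists of genes regulated by TGF-beta hold filled points on both sides of 0.

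Genes that TGF-beta is known to raise or lower in T cells were then read in the same fit. Their response to TGF-beta varies with the setting, and the lists came from general knowledge with earlier results of these libraries known, so their counts are not independent evidence. Of the list of raised genes 12 were tested, 4 of them members. Itgae and Ccr9 rose and Il7r fell, and the median log2 fold change was -0.03, or 0.35 over the 8 that are not members. Of 14 genes on the list of lowered genes, Gzmb and Id2 rose and Cxcr3, Il18r1 and Prf1 fell, with a median of 0.07. Together 4 of 26 rose and 4 of 26 fell, against 2.46% and 1.49% of all genes. Among those that fell, Il18r1 averaged under 1 RPKM in the GFP-hi libraries (0.923) and passed the filter only through its GFP-lo mean of 3.525. The filter favours a fall in such a gene, so its part in the count cannot be weighed against the background. With no filter on low values 4 of 29 rose and 4 of 29 fell, Il18r1 again among the latter. Of the calls over all genes 62.3% were higher in GFP-hi, and 50.1% with trimmed mean of M values scaling.

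Itgae (Entrez 16407), which encodes CD103, had 73.9, 67.9 and 60.7 RPKM in GFP-hi and 31.6, 25.9 and 25.9 RPKM in GFP-lo. The lowest GFP-hi library was far above the highest GFP-lo library, and the log2 fold change was 1.25 (standard error 0.098, limma adjusted p = 0.00087). Ccr9, a chemokine receptor of thymic and gut T cells, had 18.1, 20.03 and 16.1 RPKM against 11.99, 11.3 and 9.64 RPKM (log2 fold change 0.67, limma adjusted p = 0.010). Il7r, whose expression in naive CD8 T cells TGF-beta signalling sustains, went the other way, at 64.0 ± 5.53 against 112 ± 6.71 RPKM (SD, n = 3 each; log2 fold change -0.80, limma adjusted p = 0.0022). Its repressor Gfi1 had 6.46, 8.75 and 5.96 RPKM in GFP-hi and 5.21, 6.41 and 4.57 RPKM in GFP-lo, with overlapping groups (log2 fold change 0.33, limma adjusted p = 0.25). Smad7, Skil, Ski and Tgif1, the members on this list, had fold changes between -0.21 and 0.0023 and did not pass.

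Of the genes listed as lowered, the chemokine receptor gene Cxcr3 had 8.87, 9.12 and 12.6 RPKM in GFP-hi and 23.5, 22.3 and 31.4 RPKM in GFP-lo (log2 fold change -1.26, limma adjusted p = 0.0054). The cytokine receptor gene Il18r1 was at 1.19, 0.629 and 0.955 against 2.66, 3.90 and 4.01 RPKM (log2 fold change -1.23, limma adjusted p = 0.0048). Of the cytotoxic genes, Prf1, for perforin, fell to 22.6 ± 1.80 from 34.1 ± 1.12 RPKM (log2 fold change -0.57, limma adjusted p = 0.0046), whereas Gzmb, for granzyme B, was at 3.49 ± 0.292 against 1.62 ± 0.644 RPKM (SD, n = 3 each; log2 fold change 0.81, limma adjusted p = 0.038). Id2, an inhibitor of E proteins, had 36.0 ± 2.74 against 27.8 ± 1.995 RPKM (log2 fold change 0.36, limma adjusted p = 0.040).

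The calls for Gzmb and Id2 depended on single libraries and on the scale: Gzmb missed the threshold with a pseudocount of 0.1 (limma adjusted p = 0.054), and Id2 with trimmed mean of M values scaling (0.078). Gzmb also missed it when the first (limma adjusted p = 0.12), the second (0.078) or the third (0.084) GFP-hi library or the second GFP-lo library (0.11) was left out. Id2 missed it when the first (0.12) or the second (0.081) GFP-hi library, or the first (0.080), the second (0.098) or the third (0.13) GFP-lo library, was left out. Itgae, Ccr9, Il7r, Cxcr3, Il18r1 and Prf1 passed in each of the 6 fits without 1 library. Without GFP-hi replicate 2 and GFP-lo replicate 2 together, Itgae, Il7r and Prf1 passed, and Ccr9 (0.077), Cxcr3 (0.050) and Il18r1 (0.056) missed it by adjusted p. Id3 and Il2rb, the most abundant of this list, did not pass (log2 fold changes 0.50 and 0.26, limma adjusted p = 0.32 and 0.13), and Id3 was highest in the heat-shock libraries, at 136 RPKM in GFP-hi replicate 2 and 88.2 RPKM in GFP-lo replicate 2.

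**Figure D5:**
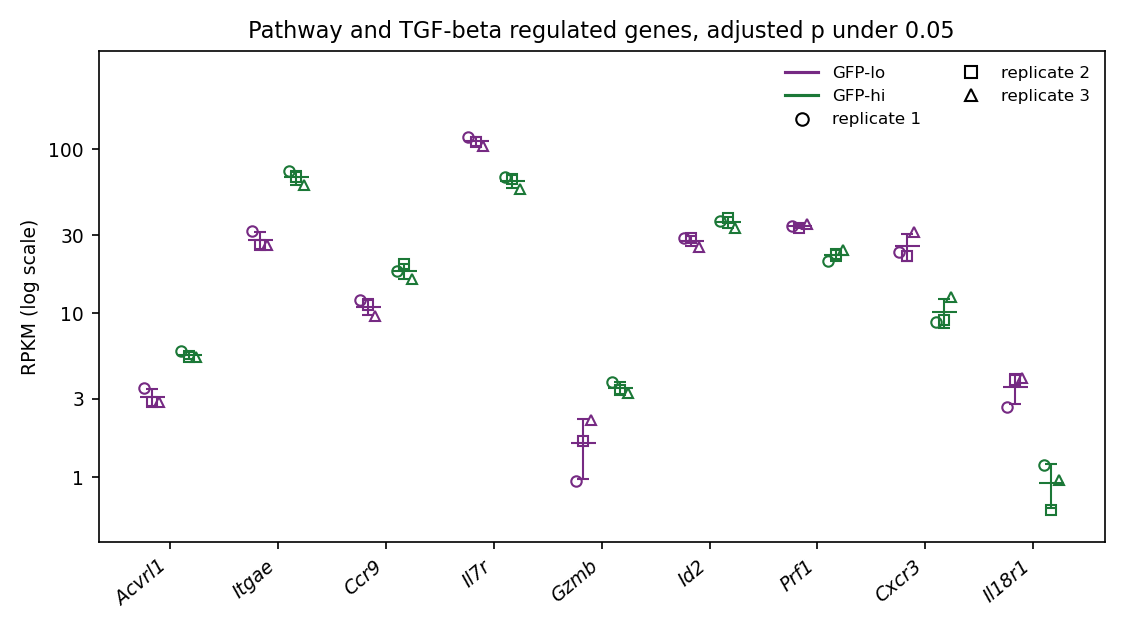
RPKM (log axis) in each of the 6 libraries of the 9 genes of the pathway and TGF-beta regulated lists that passed the test, GFP-lo in purple and GFP-hi in green; symbols mark replicate numbers and bars the mean and SD of 3 libraries. In all 9 the populations are separate, with Itgae at 60.7 RPKM or more in GFP-hi and 31.6 RPKM or less in GFP-lo.

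Markers of dividing cells moved with these differences. Of 13 cell cycle genes tested 9 rose and 0 fell (background 2.46% higher and 1.49% lower). Of those that rose, Mki67, Top2a, Ccnb2, Pclaf, Bub1b and Birc5 averaged under 1 RPKM in GFP-lo and passed the filter only through GFP-hi. The filter itself favours a rise in such genes, so the count cannot be weighed against the background. The 15 listed genes summed to 143 to 160 RPKM in GFP-hi and 99.2 to 108 RPKM in GFP-lo. The proliferation marker Mki67 had 2.10, 1.31 and 2.31 RPKM against 0.070, 0.279 and 0.306 RPKM. The part of dividing cells, or of the CD4 and B cell markers above, in the values of Acvrl1, Itgae or the other genes above was not tested.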

How the data were processed

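RNA from 6 libraries was compared, 3 GFP-hi and 3 GFP-lo. The authors deposited RPKM values, per the file headers, with 1 column for each library; STAR and the build mm10 are named in the submitters' processing notes, and the read counter, gene lengths and rule for listing genes are not given in the sources used here. Each column was assigned by its title, and samples to groups by the reporter label. Depth was recovered from the step that 1 read makes in low RPKM values of genes with a single GENCODE M21 transcript, taking the smallest depth that gave whole reads; 85.9% to 89.7% of 180 to 193 low values per library lay within 0.1 of a whole read. PCR copies were not removed by molecular identifiers, so reads are not independent molecules.

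Genes with a mean of at least 1 RPKM (9351) were tested with limma 3.58.1 (R 4.3.3) on log2(RPKM + 1), with lmFit and trended eBayes, two-sided, adjusted by Benjamini-Hochberg over all genes tested; an adjusted p under 0.05 was called. Log2 fold changes on this scale understate changes of low genes. Ratios and sums of members (6) were compared by exact permutation. The scripts were tested on simulated data. Members and lists were chosen with earlier results of these data known. The text names all members and, of the pathway and TGF-beta regulated lists, the called genes and from each list the 2 most abundant tested genes and the 2 with the largest fold change; Gfi1, Tgfb3, Smad1, marker genes and others outside that rule were chosen after their values were seen. Symbols were matched directly or by Entrez ID through RefSeq's GRCm38.p6 table, and promoters come from the same build. There were 19 alternatives, in pseudocount, filter, scaling, variance model, samples and a handling covariate. Plots used matplotlib 3.10.9 (Python 3.11.15).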

Additional observations from a re-analysis of the deposited data

How the results depend on the processing

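Values are log2 fold changes or counts of genes with an adjusted p under 0.05 (limma). The number of called members, 0, was 1 (Tgfbr2, lower) with quantile normalization and 1 with array quality weights, and 0 to 0 when any 1 library was left out. The number of called pathway genes, 1, was 0 with a mean RPKM of at least 5 (Acvrl1 is then not tested), 5 with array quality weights, 0 without GFP-hi replicate 2 and GFP-lo replicate 2, and 3 with the handling list mean as a covariate, and 1 to 1 without any 1 library. The number of called TGF-beta regulated genes, 8, was 3 without GFP-hi replicate 2 and GFP-lo replicate 2 and 6 to 8 without any 1 library. It was 11 with array quality weights, 10 with the handling covariate, and 9 with quantile normalization or with eBayes without trend. With a pseudocount of 0.1 it was 7, and with a mean RPKM of at least 5 it was 6. Signs turned for 5 members, none of them called. For Tgfbr1 the value was -0.0039 with quantile normalization, -0.0161 with trimmed mean of M values, -0.0205 with the handling covariate and -0.0659 to 0.0895 without 1 library. For Smad3 it was 0.0451 without GFP-hi replicate 2 and GFP-lo replicate 2, 0.0838 without GFP-hi replicate 2 and GFP-lo replicate 1, and -0.42 to 0.07 without 1 library. For Smad4 it was 0.0427 without GFP-hi replicate 2 and GFP-lo replicate 2 and -0.0835 to 0.0273 without 1 library, and for Smad7 0.0195 without GFP-hi replicate 2 and GFP-lo replicate 1, and -0.225 to -0.0033 without 1 library. For Ski it was -0.0057 and -0.0011 with pseudocounts of 0.1 and 0.5, -0.0023 with median centring, -0.0109 with quantile normalization, -0.0190 with trimmed mean of M values, -0.12 with array quality weights, -0.19 without GFP-hi replicate 2 and GFP-lo replicate 2, -0.13 without GFP-hi replicate 2 and GFP-lo replicate 1, and -0.20 to 0.11 without 1 library. The cause was not tested. Over all genes, 101 to 1282 genes were called, beside 369 (1282 of 9351 with array quality weights and 826 with the handling covariate), and 62.3% of calls were higher in GFP-hi, against 50.1% with trimmed mean of M values. No paired analysis was run, because the labels tie no GFP-hi library to a GFP-lo library. The replicate numbers follow the order of the records. Some genes were nonetheless alike in libraries of the same number. Hspa1a was at 1100 and 1234 RPKM in GFP-hi and GFP-lo replicate 2, and at most 235 RPKM elsewhere. Ccr7 was at 429 and 516 RPKM in GFP-hi and GFP-lo replicate 1, and at most 264 RPKM elsewhere. Whether the spread within groups hides differences between libraries of the same number was not tested. Ski and Skil, at 62 to 134 and 81 to 113 reads per kilobase, are the members that depth limits most.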

Other observations

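The genes whose profile over the 6 libraries lay closest to that of Tgfbr2, the member with the smallest p, were Zfp869, Tmem243 and Pwp2, at Euclidean distances of 0.066, 0.068 and 0.074 between log2(RPKM + 1) profiles centred on their own means. Pwp2, which encodes a factor of ribosome assembly, had 29.96, 28.8 and 29.4 RPKM in GFP-hi and 35.7, 34.1 and 33.8 RPKM in GFP-lo, and just passed the test with a fold change almost equal to that of Tgfbr2 (-0.23, limma adjusted p = 0.050). Zfp869 (-0.19) and Tmem243 (-0.18) did not pass. This likeness over 6 libraries is a description.

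Some genes linked to TGF-beta lay below the filter and were not tested. Hic1, a transcriptional repressor, had 0.687, 0.732 and 0.516 RPKM in GFP-hi and 0.242, 0.399 and 0.166 RPKM in GFP-lo. Ahr, the aryl hydrocarbon receptor, had 0.967, 0.747 and 0.866 RPKM in GFP-hi and 0.544, 0.446 and 0.473 RPKM in GFP-lo. In both, the GFP-hi libraries were all above the GFP-lo libraries, as for 17.1% of tested genes, and all values were under 1 RPKM. Nrp1, the other gene of the list of raised genes below the filter, overlapped (means of 0.783 against 0.635 RPKM). The pathway genes below the filter, such as Tgfb3, Foxo3 and Bmpr1a, overlapped too. The library GFP-hi replicate 2 also stood apart for the Smad coactivator Ep300, with 9.48 RPKM against 15.6 and 14.4 RPKM in the other GFP-hi libraries; in GFP-lo replicate 2 it was at 13.4 RPKM.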
